A study of Mus musculus with 57 samples.

Results

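Methylene dianiline (MDA) is an aromatic diamine used to make polyurethane and epoxy resins, and it is known as a toxicant of bile duct epithelium and liver. Livers of mice killed 24 h after MDA by gavage were compared with livers of mice given the gavage vehicle, for all genes expressed and for the pathways they belong to. They were chosen by their labels: 7 livers of the 57 in the series carry the compound name, and 13 carry the name of the vehicle control (Ctrl). All were male wild-type C57BL/6JJcl mice, 6 weeks old, acclimatised for 1 week and fasted for 12 h before dosing. The controls received 0.5% methylcellulose. The labels give a dosing volume of 10 µL/kg and no mass dose, and they name 3 vehicles for the series without saying which carried MDA. Each mouse gave 1 library of polyadenylated RNA from the left lateral lobe of a perfused liver. For direct comparison there were 4 livers of mice given alpha-naphthyl isothiocyanate (ANIT), which injures bile ducts, 6 given acetaminophen (APAP) and 5 given thioacetamide (TAA), which injure hepatocytes, all by gavage and all at 24 h.

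Hepatocytes make bile acids from cholesterol and pump them into the bile canaliculus. When bile acids collect in the cell, the nuclear receptor FXR (gene Nr1h4) induces the repressor SHP (Nr0b2) and exporters on the blood side, and the synthesis enzyme Cyp7a1 is switched off. Aromatic amines are acetylated, hydroxylated by cytochromes P450, and conjugated to glucuronic acid, sulfate or glutathione. The nuclear receptors CAR and PXR induce such P450 enzymes, and the factor NRF2 induces the genes of glutathione and quinone handling.

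The libraries held between 17494460 and 27594316 estimated counts for MDA and between 15188909 and 28093184 for Ctrl, and they listed 15081 to 17719 and 15637 to 17748 genes with a count of at least 1. Levels are given as CPM, a gene's counts relative to the total of its library, scaled by the trimmed mean of M values (TMM) unless library totals are named; the deposited values behave as length-corrected, so CPM can be set side by side between genes. Transcripts of the mitochondrial genome took 17.7 ± 5.41% of the counts (SD, n = 7) in MDA livers and 15.2 ± 4.15% (SD, n = 13) in controls, a difference of 2.46 percentage points (two-sided exact permutation test, p = 0.267). Albumin (Alb), the hepatocyte's main secreted protein, stood at 32294, 49649 and 82756 CPM in the MDA livers (lowest, median, highest) and at 27103, 41977 and 72005 CPM in the controls. Alb was thus abundant in every library labelled liver. In bulk RNA, fewer cells of a type and less RNA per cell cannot be told apart.

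The library labelled MDA 1 went against its label, and so did the library labelled ANIT 1. Across 7582 genes, the library labelled MDA 1 correlated at r = 0.929 with the mean of the other 6 MDA livers and at r = 0.955 with the mean of ANIT 2 to 4 (log2 of CPM + 1; a description across genes). Its r with the control mean was 0.932, where the other 6 MDA livers stood at 0.892 to 0.915. For the library labelled ANIT 1 the order was reversed, with r = 0.968 to the 6 MDA livers and r = 0.923 to the other ANIT livers. Each of the other 9 libraries was closest to its own group, the MDA livers at 0.946 to 0.967 with their own group and 0.914 to 0.934 with ANIT, and ANIT 2 to 4 at 0.944 to 0.965 with theirs and 0.928 to 0.937 with MDA. The library labelled MDA 1 was nearer to the ANIT mean in 464 (74%) of the 627 genes that differed between the other 6 MDA and 3 ANIT livers, and the library labelled ANIT 1 was nearer to the MDA mean in 587 (93.6%).

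Single genes showed how far both libraries lay from the others of their label. In CPM of the library total, Cyp7a1 stood at 61.8 in the library labelled MDA 1 against 0 to 0.104 CPM in the other 6, and at 0 in the library labelled ANIT 1 against 8.48 to 39.1 CPM in ANIT 2 to 4. Gsta1, a glutathione S-transferase, stood at 6.14 against 176 to 423 CPM among MDA livers and at 319 against 3.33 to 14.9 CPM among ANIT livers. Glul, the glutamine synthetase of hepatocytes around the central vein, stood at 400.2 against 28.1 to 79.4 CPM and at 30.1 against 253 to 337 CPM. Of 16 genes looked at in this way, chosen with their values known, 9 had both libraries numbered 1 outside the range of the others of their label: Cyp7a1, Cyp8b1, Slc51b, Abcb1a, Sqle, Gsta1, Cyp2b10, Srebf1 and Glul. In 5 more (Mt2, Hsd3b5, Cidec, Fgf21 and Nqo1) the library labelled ANIT 1 lay outside and the library labelled MDA 1 inside. Mt2, a metallothionein, stood at 1789 in the library labelled MDA 1, inside the 550.4 to 2016 CPM of the other MDA livers, and at 928 in the library labelled ANIT 1 against 2807 to 6691 CPM in ANIT 2 to 4. In Cdkn1a the library labelled MDA 1 alone lay outside, and in Scd1 neither did. No library was relabelled. What put the 2 libraries there was not tested, and results below are given with all 7 livers. Values without the library labelled MDA 1, which was chosen for removal by its values, are added where a call of a named gene changes or its fold moves clearly. Without that library 7 of 128 list counts (64 lists, higher and lower) moved by over 1.5 times, among them bile acid sensing genes called lower, 0 with 7 livers and 3 with 6, and hepatocyte transcription factors called lower, 4 and 8.

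**Figure D1:**
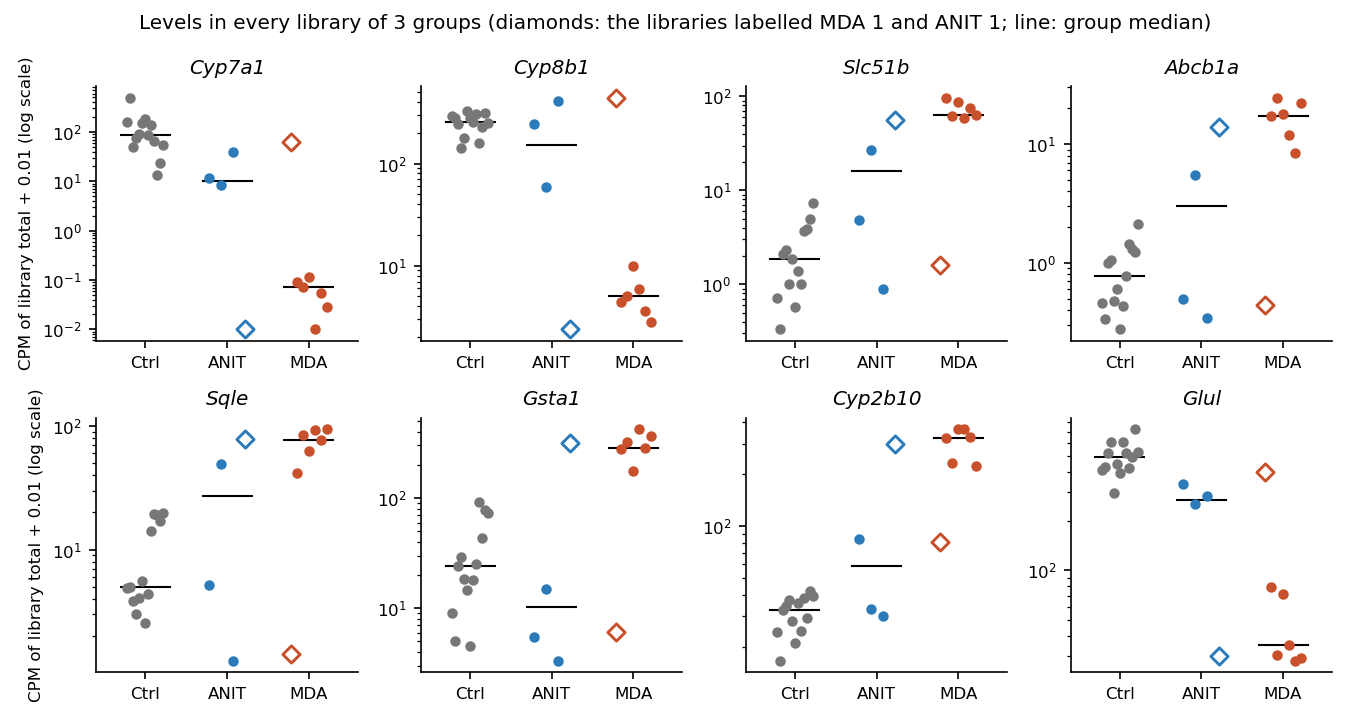
Levels of 8 genes in every control, ANIT and MDA library, as CPM of the library total plus 0.01 on a log axis, 1 point per liver with the group median as a line. The open diamonds are the libraries labelled MDA 1 and ANIT 1; for Cyp7a1 the MDA diamond lies at 61.8 CPM among the controls while the other 6 MDA livers lie at 0 to 0.104 CPM.

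With all 7 MDA livers, 4570 of 13522 genes tested passed an adjusted p of 0.05 in edgeR's quasi-likelihood test (33.8%), 2354 higher (17.4%) and 2216 lower (16.4%). Scaled to library totals the balance turned, with 1560 higher and 1947 lower. The shares of 17.4% and 16.4% over all genes are those beside which each list count below is to be read. Over all tested genes the log2 fold change had a median of 0.03. Of the genes called, 1432 changed by at least 1 on the log2 scale, 664 up and 768 down, and 647 of the tested genes (4.78%) were called with no overlap between the 7 and the 13 livers, 244 higher and 403 lower. Without the library labelled MDA 1 the counts were 4779 of 13744 (34.8%), with 2441 higher (17.8%), 2338 lower (17%) and 1117 without overlap (8.13%). Both fits called 4289 genes, none of them in opposite directions; 281 genes were called only with that library and 455 only without it. On the 1117 genes that separated the other 6 livers from the controls, the library labelled MDA 1 lay beyond the control range on the same side for 651 (58.3%), inside the control range for 422 and beyond it on the other side for 44.

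Control levels of some genes moved with the mouse number. Gsta1 ran from 5.35 to 15.0 CPM in the controls numbered 1 to 4 and from 16.8 to 85.7 CPM in those numbered above 4, and Hsd3b5 from 98.0 to 138 CPM and from 18.7 to 97.8 CPM. The labels do not say what the numbers stand for. Within numbers 1 to 4 (4 MDA and 4 control livers) 1292 genes passed, and above 4 (3 and 9 livers) 3020 passed. The interaction of MDA with the number range called 0 of 13522 genes in edgeR, with 767 at an unadjusted p under 0.05.

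**Figure D2:**
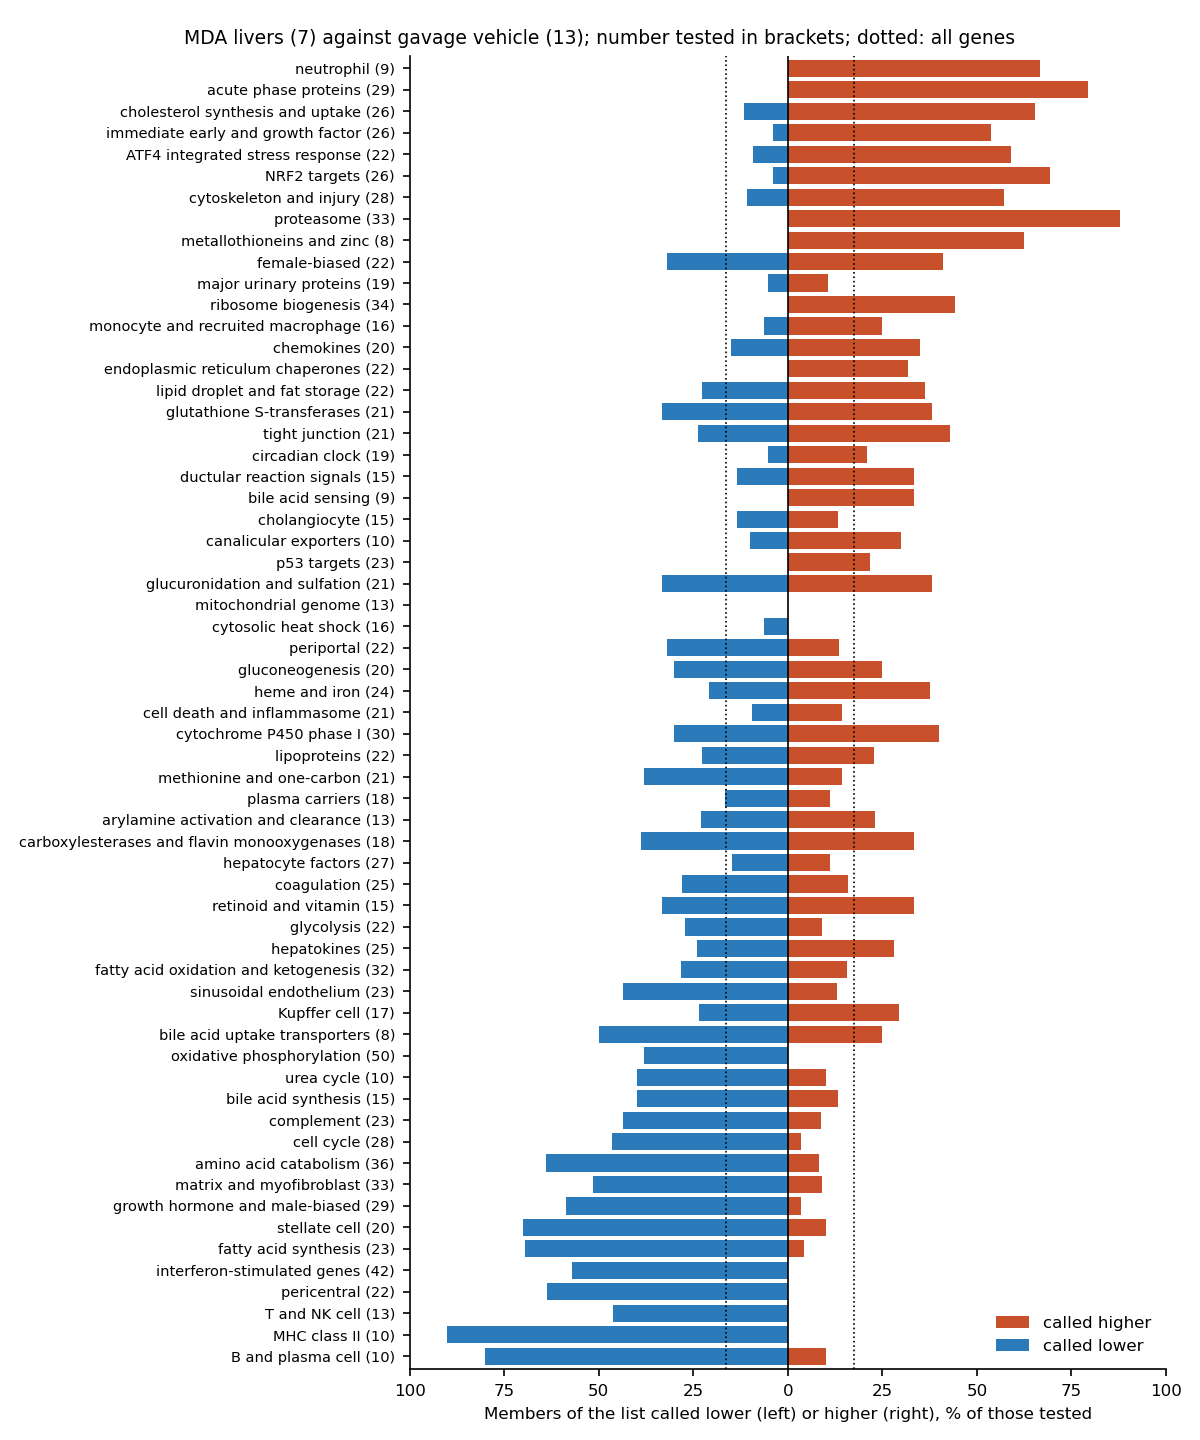
Share of the tested members of each gene list called lower (left) or higher (right) in 7 MDA livers against 13 controls, for lists with at least 8 members tested, ordered by their median change. The dotted lines mark the share over all genes, 16.4% lower and 17.4% higher; the neutrophil list (median log2 fold change 1.97) is at the top and MHC class II (-1.30) is near the bottom.

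Cyp7a1 and Cyp8b1, enzymes of bile acid synthesis, were lower than in every control and Slc51b, a subunit of the exporter to the blood, was higher than in every control in 6 of the 7 livers. Of 15 synthesis genes, 6 fell and 2 rose (median log2 fold change -0.33), and 7 fell without the library labelled MDA 1. Cyp7a1, the rate-limiting enzyme, stood at 13.5, 78.5 and 529.5 CPM in the controls (lowest, median, highest), at 0, 0.0670 and 0.0949 CPM in the 6 other MDA livers and at 64.4 CPM in the library labelled MDA 1. The 6 livers held at most 2.71 estimated counts of it each, while the lowest control held 356. With all 7 livers the log2 fold change was -3.82 ± 1.32 (SE; adjusted p 0.0292), and the call was lost without MDA 8 (adjusted p 0.0509). Without the library labelled MDA 1 the adjusted p was 2.56e-07; a fold against so few counts depends on the prior count and is not given.

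Cyp8b1, which directs synthesis to cholic acid, stood at 130.4, 237 and 412 CPM in the controls and at 2.72, 5.05 and 8.96 CPM in the 6 livers, with 461 CPM in the library labelled MDA 1. The 6 livers lay wholly below the controls, and the remaining library above their highest value. Its call rested on that library: the log2 fold change was -1.84 ± 0.86 (adjusted p 0.106) with all 7 livers and -5.57 ± 0.31 (adjusted p 9.8e-11) without it. Hsd3b7 and Cyp2c70, which act on the sterol ring, fell with all 7 livers, by 1.23 ± 0.12 and 1.46 ± 0.29 on the log2 scale. Cyp27a1, which begins the alternative pathway, was not called (-0.23 ± 0.14, adjusted p 0.227), and Acox2, which shortens the side chain in peroxisomes, rose from a control median of 145 to 239.9 CPM (0.74 ± 0.10).

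Among exporters on the blood side, Slc51b, the beta subunit of the organic solute transporter, stood at 0.342, 1.89 and 6.35 CPM in the controls and at 48.3, 71.6 and 115 CPM in 6 MDA livers, without overlap. The library labelled MDA 1 held 1.66 CPM, inside the control range. The log2 fold change was 4.88 ± 0.54 (adjusted p 8.8e-07) with all 7 and 5.10 ± 0.42 without it. The alpha subunit Slc51a was too low to test, at most 0.119 CPM in any control and 0.0160 CPM in any MDA liver. Abcc4, an efflux pump for conjugated bile acids, rose from 0.481, 1.02 and 1.33 CPM to 2.21, 3.06 and 4.00 CPM without overlap (1.59 ± 0.18, adjusted p 9.78e-07). Its relative Abcc3 rose by 0.54 ± 0.11.

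On the canalicular side, 3 of 10 exporters rose and 1 fell. Abcb4, which moves phospholipid into bile, stood at 46.5, 52.6 and 65.2 CPM in the controls and 67.7, 134 and 174 CPM in the MDA livers, the lowest being the library labelled MDA 1, and did not overlap (1.32 ± 0.12, adjusted p 6.55e-08). The drug efflux pump Abcb1a was at 0.348, 0.704 and 1.81 CPM in the controls and at 9.93, 16.9 and 25.8 CPM in 6 livers, and at 0.451 CPM in the library labelled MDA 1 (4.13 ± 0.43 with 7, 4.34 ± 0.29 with 6). Abcb11, the bile salt export pump, was not called with 7 livers and passed without that library (0.52 ± 0.22, adjusted p 0.077, against 0.69 ± 0.16, adjusted p 0.00243) or without MDA 8 (adjusted p 0.0446). The canalicular conjugate pump Abcc2 passed in neither fit (-0.10 ± 0.13, adjusted p 0.609), and Slc47a1, an organic cation exporter, fell (-1.18 ± 0.17).

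For uptake from blood, the bile salt carrier Slc10a1 was not called (0.02 ± 0.23, adjusted p 0.966). Slc22a7, an organic anion carrier, fell from 18.0, 26.3 and 46.1 CPM to 2.34, 4.66 and 7.70 CPM, with no overlap (-2.58 ± 0.25, adjusted p 1.53e-07). Slco1a1 fell and Slco1a4 rose (-1.68 and 1.25).

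Among sensors, Nr0b2 stood at 30.7, 70.2 and 105 CPM in controls and 138, 163 and 184 CPM in 6 MDA livers, all above the controls, and at 41.9 CPM in the library labelled MDA 1 (1.09 ± 0.24 with 7 livers, 1.25 ± 0.20 with 6). Nr1i2, which encodes PXR, rose in all 7 to between 38.1 and 81.7 CPM from at most 32.0 CPM (1.15 ± 0.12). Nr1h4 itself was called lower only without the library labelled MDA 1 (-0.79 ± 0.14, adjusted p 0.000172, against -0.35 ± 0.23, adjusted p 0.262, with it). That library held 81.6 CPM, above every control, while the others held 17.9, 23.4 and 28.6 CPM and lay below every control.

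Markers of bile duct cells were called about as often as genes in general. The keratins Krt19 and Krt7 and the adhesion molecule Epcam were not called (adjusted p 0.14, 0.411 and 0.532; for Krt19 0.0209, lower, without MDA 7), with medians between 0.929 and 1.38 CPM in MDA livers. Of 15 bile duct markers 2 rose and 2 fell (13.3% each, where 17.4% and 16.4% of all genes tested did), and the level summed over the list ran between 70.1 and 125 CPM in the MDA livers and between 63.3 and 142 CPM in the controls. Sox9, a transcription factor of bile duct and reactive cells, and Cldn4, a tight junction protein, were the ones that rose, to medians of 2.78 and 0.815 CPM (1.16 ± 0.27 and 1.97 ± 0.44). Among 21 junction genes 9 rose and 5 fell; Ocln, an occludin, rose (0.75) and Cldn5, of endothelium, fell (-1.07).

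Signals tied to bile duct reactions included larger changes. Tnfrsf12a, the receptor of the cytokine TWEAK, stood at 5.41, 8.05 and 17.8 CPM in the controls and 37.3, 65.6 and 136 CPM in 6 MDA livers, without overlap, and the library labelled MDA 1 held 15.8 CPM, within the controls (2.86 ± 0.31, adjusted p 7.41e-07, with 7). Gadd45b, a stress gene, rose in all 7 without overlap, from 0.137, 1.39 and 4.05 CPM to 7.19, 13.1 and 24.5 CPM (3.26 ± 0.46). In all, 5 of 15 genes of this list rose and 2 fell.

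Cholesterol synthesis and fatty acid synthesis moved in opposite directions. Both are driven by factors of the SREBP family: SREBP-2 acts on the sterol genes, and SREBP-1c, from the gene Srebf1, acts on the fatty acid genes. Of 26 cholesterol genes 17 rose and 3 fell (median 1.16 on the log2 scale), or 22 and 4 without the library labelled MDA 1 (median 1.33). Of 23 fatty acid genes 1 rose and 16 fell (median -0.93).

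Sqle, which makes squalene epoxide, stood at 2.78, 5.38 and 18.9 CPM in the controls and at 41.4, 82.8 and 118 CPM in 6 MDA livers, with no overlap, and was at 1.49 CPM in the library labelled MDA 1, below every control (2.92 ± 0.51 with 7, adjusted p 0.000144, and 3.14 ± 0.39 with 6). Hmgcs1 and Idi1, earlier and middle steps, also had 6 livers above every control and the library labelled MDA 1 below every control, with 2.42 ± 0.38 and 2.64 ± 0.45. The later enzymes Ebp, Sc5d and Tm7sf2 fell (-0.72, -0.70 and -0.56).

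Srebf1 stood at 244, 408 and 569 CPM in the controls and 22.8, 35.6 and 50.2 CPM in all 7 MDA livers, the library labelled MDA 1 being the lowest. The groups did not overlap (-3.43 ± 0.20, adjusted p 1.79e-10). Scd1, the desaturase that makes oleate, was at 1249, 2202 and 6636 CPM in the controls and at 106, 165 and 304 CPM in the MDA livers, again with the library labelled MDA 1 lowest and no overlap (-3.85 ± 0.33, adjusted p 4.88e-08). Acacb, which makes the malonyl-CoA that restrains fat oxidation, fell (-2.20 ± 0.28), while Fasn and Acaca, the main synthase and carboxylase, were not called (-0.49 ± 0.38, adjusted p 0.347, and -0.48 ± 0.21, adjusted p 0.0806). Insig2, which holds SREBP in the endoplasmic reticulum, was the member of the list that rose (1.70 ± 0.23).

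Several genes of the lipid droplet rose. Cidec, which fuses lipid droplets, stood at 0.172, 0.734 and 1.32 CPM in the controls and 18.1, 39.8 and 86.7 CPM in the MDA livers, every MDA liver above every control (5.97 ± 0.38, adjusted p 6.33e-10). Plin5 and Plin2, coat proteins of the droplet, rose by 1.61 ± 0.20 and 0.72 ± 0.19, and G0s2, an inhibitor of the lipase ATGL, fell (-1.79 ± 0.35). In the whole list of 22 genes 8 rose and 5 fell. Among apolipoproteins, Apoa5 rose without overlap (0.96 ± 0.14), and the lipase Lipc fell (-1.47 ± 0.19).

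For fat oxidation more genes were called without the library labelled MDA 1. Of 32 genes 9 fell and 5 rose with all 7 livers, and 17 fell and 5 rose without it. Cpt1a, the gate of fatty acids into mitochondria, passed in neither fit (adjusted p 0.974 and 0.245), with 232 CPM in the library labelled MDA 1 and 56.8, 92.5 and 139.9 CPM in the others.

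**Figure D3:**
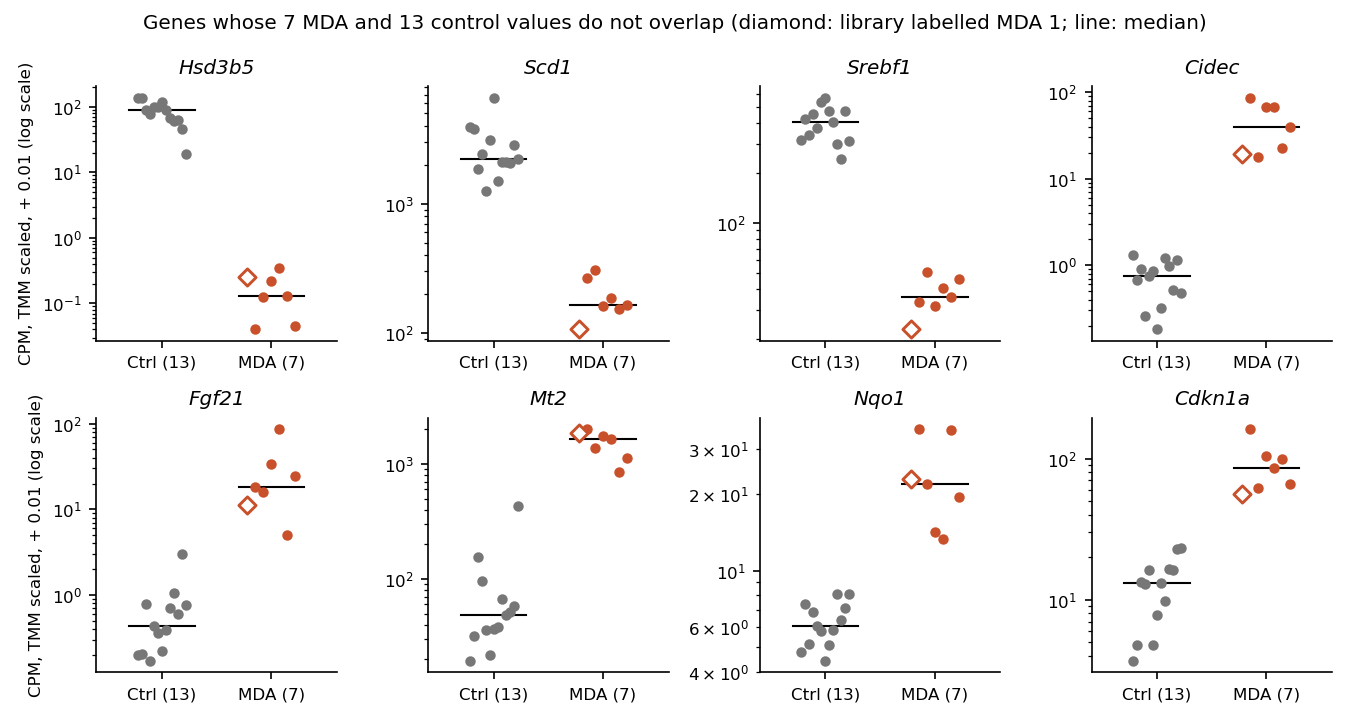
CPM (TMM scaled, plus 0.01, log axis) of 8 genes in 13 control and 7 MDA livers, 1 point per liver with the group median as a line; the open diamond is the library labelled MDA 1. The 7 MDA values lie wholly outside the 13 control values for each gene shown, for example 18.1 to 86.7 against 0.172 to 1.32 CPM for Cidec.

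Enzymes that process foreign compounds changed in both directions. Of 30 cytochromes P450 12 rose and 9 fell. Of 21 glutathione S-transferases 8 rose and 7 fell, and the same counts held for 21 glucuronosyl- and sulfotransferases. Several of these families hold near-identical copies (Gsta1 with Gsta2, Cyp2b9 with Cyp2b10, Cyp2a4 with Cyp2a5), among which reads can be shared out wrongly.

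Cyp2b10, the classical target of CAR, stood at 17.6, 30.5 and 38.4 CPM in the controls and at 84.1, 302 and 509.7 CPM in the MDA livers, the lowest being the library labelled MDA 1, and the groups did not overlap (3.25 ± 0.21, adjusted p 1.1e-09). Cyp3a11, the main target of PXR, ran from 728, 1381 and 1869 CPM in the controls to 2229, 4907 and 6061 CPM in 6 livers, with 1055 CPM in the library labelled MDA 1, inside the control range (1.58 ± 0.26 with 7). Cyp2a5, which oxidises coumarin, went from 192, 305 and 426 CPM to 1108, 1917 and 4864 CPM with all 7 above the controls (2.87 ± 0.21, adjusted p 4.83e-09). Cyp1a2, which hydroxylates aromatic amines, was not called (-0.18 ± 0.20, adjusted p 0.504). Cyp1a1, a target of the aryl hydrocarbon receptor, stood at 7.60 CPM in the library labelled MDA 1 and at 0.254, 0.549 and 1.29 CPM in the other 6, against 0.300, 0.707 and 1.28 CPM in controls, and was not called (1.16 ± 0.51 with 7 and -0.19 ± 0.33 with 6, adjusted p 0.0854 with 7; 0.0431 without MDA 4). Cyp2e1, which oxidises small solvents, was called lower only without that library (-1.11 ± 0.19, adjusted p 0.000123).

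For acetylation, Nat1 and Nat2, the arylamine N-acetyltransferases, were not called (adjusted p 0.442 and 0.651), with Nat2 at 3.79, 5.43 and 7.40 CPM in MDA livers and 3.63, 4.57 and 8.93 CPM in controls. Aadac, a deacetylase, fell (-0.71 ± 0.17) and Sult1a1, which sulfates phenols and hydroxylamines, rose (0.70 ± 0.13). The receptor Ahr fell (-1.03 ± 0.24). In that list of 13 genes 3 rose and 3 fell.

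Among conjugating enzymes, Gsta1 stood at 5.35, 22.3 and 85.7 CPM in the controls, 159.8, 344 and 443 CPM in 6 MDA livers and 6.41 CPM in the library labelled MDA 1. The 6 lay above every control, while the remaining library lay near the lowest control (3.15 ± 0.55 with 7, adjusted p 0.000167). Gstm3 also separated the 6 livers from the controls, at 57.8, 110.0 and 523 CPM in controls, 755, 1554 and 3316 CPM in the 6 and 34.1 CPM in the library labelled MDA 1, below every control (3.15 ± 0.53). Sult1e1, the estrogen sulfotransferase, rose to a median of 3.71 CPM from 0.262 (4.72 ± 0.57), and Sult2a8, a bile acid sulfotransferase, fell to 37.3 from 155 (-1.91 ± 0.33). Sult1e1 passed the filter on low counts only through the MDA livers, where it was high, so its fold rests on few control counts.

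Among flavin monooxygenases and carboxylesterases 6 of 18 rose and 7 fell. Fmo2 went from 1.08, 1.65 and 3.05 CPM to 7.85, 26.0 and 41.0 CPM, without overlap (3.75 ± 0.27, adjusted p 2.61e-09), and Fmo5 rose by 1.67 ± 0.19. Ces3a, an esterase of the endoplasmic reticulum, fell from 1176, 1547 and 1932 CPM to 319.6, 449.8 and 579.6 CPM, with no overlap (-1.78 ± 0.13). Ces1e, Ces1f and the aldehyde oxidase Aox3 also fell (-1.30, -1.55 and -1.80).

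Targets of NRF2 rose in 18 of 26 tested and fell in 1, with a median of 0.77 against 0.03 for all genes; without the library labelled MDA 1 the counts were 21 and 1 of 27, Gpx2 included, which passed the filter on low counts only then. Nqo1, a quinone reductase, stood at 4.42, 6.03 and 8.10 CPM in the controls and 13.3, 21.8 and 35.8 CPM in the MDA livers, all of them above the controls (1.90 ± 0.18, adjusted p 1.11e-07). Cbr3, a carbonyl reductase, went from 0.318, 0.882 and 1.14 CPM to 2.68, 10.8 and 13.5 CPM (3.64 ± 0.25), and Srxn1, which repairs peroxiredoxins, from 16.6, 28.3 and 44.9 CPM to 58.7, 178 and 240.3 CPM (2.60 ± 0.23), both without overlap. Hmox1, the heme oxygenase, rose without overlap (1.90 ± 0.16), and Gclc, of glutathione synthesis, rose by 0.78 ± 0.15. Me1, which NRF2 shares with the lipogenic factors, was the member that fell (-1.04 ± 0.24). Gpx2, a glutathione peroxidase of epithelia, was too low for the test with 7 livers and passed that filter through the MDA livers alone. It stood at 5.28, 10.3 and 23.5 CPM in 6 MDA livers, at 0.384 CPM in the library labelled MDA 1 and at 0, 0.160 and 0.386 CPM in the controls, which held at most 10.9 estimated counts each, so no fold or test is given.

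The transcription factor ATF4 is translated when stress kinases phosphorylate the initiation factor eIF2 alpha, and it drives genes of amino acid supply and of stress signalling. Of 22 such genes tested 13 rose and 2 fell (median 0.78). Fgf21, a hormone that liver secretes under metabolic and amino acid stress, stood at 0.160, 0.419 and 2.98 CPM in the controls and 4.98, 18.3 and 86.5 CPM in the MDA livers, with no overlap (5.31 ± 0.53, adjusted p 2.75e-07). Fgf21 passed the filter on low counts only through the MDA livers, where it was high, so its fold rests on low control counts. Psat1, of serine synthesis, rose from 0.390, 0.945 and 1.50 CPM to 1.58, 4.65 and 10.4 CPM, also without overlap (2.61 ± 0.28). Nupr1, a chromatin protein of stressed cells, and the factor Atf3 rose with overlap (2.79 ± 0.46 and 1.91 ± 0.54), and the library labelled MDA 1 was inside the controls for both, at 1.59 and 0.902 CPM. Ddit3, which encodes CHOP, rose by 0.90 ± 0.33 (adjusted p 0.0372; 0.0521, 0.0972 and 0.237 without MDA 3, 4 or 7), and Shmt2 and Vldlr were the members that fell.

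A C/EBP-ATF response element, searched as TGATGCAA on either strand in the 250 bases before each RefSeq start (GRCm38.p6), was present in 7 of 23 genes of the ATF4 list with a promoter entry and in 248 of 27025 genes in all (0.918%). Of those 7 genes Fgf21, Nupr1 and Atf3 rose, Vldlr fell, Chac1 was not called, and Slc7a11 and Pycr1 were too low to test. The promoters of the first 3 are shown because these genes rose and hold the element, in capitals as its reverse complement; the window says nothing of binding. They lie at chr7:45615491-45615740, chr7:126625471-126625720 and chr1:191183334-191183583, all on the minus strand, and are written 5′ to 3′ toward the start.
Fgf21: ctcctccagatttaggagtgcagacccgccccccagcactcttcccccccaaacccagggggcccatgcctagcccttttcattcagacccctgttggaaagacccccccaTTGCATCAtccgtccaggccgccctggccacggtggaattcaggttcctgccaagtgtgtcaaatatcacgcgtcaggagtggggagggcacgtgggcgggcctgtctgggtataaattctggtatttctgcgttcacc
Nupr1: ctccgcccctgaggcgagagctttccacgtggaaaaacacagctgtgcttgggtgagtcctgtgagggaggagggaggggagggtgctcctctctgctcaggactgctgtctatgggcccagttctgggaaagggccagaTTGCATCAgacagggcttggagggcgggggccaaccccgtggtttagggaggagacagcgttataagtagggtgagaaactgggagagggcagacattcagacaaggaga
Atf3: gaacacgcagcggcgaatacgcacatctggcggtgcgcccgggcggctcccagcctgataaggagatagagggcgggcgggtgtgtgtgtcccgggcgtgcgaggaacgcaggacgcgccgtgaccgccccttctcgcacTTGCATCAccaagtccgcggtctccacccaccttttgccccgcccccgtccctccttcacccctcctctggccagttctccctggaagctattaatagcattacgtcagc

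Metallothioneins bind zinc and other metals and are induced through the factor MTF1 and by glucocorticoid and inflammatory signals. Mt2 stood at 19.4, 48.9 and 429 CPM in the controls and at 850.2, 1664 and 2012 CPM in the MDA livers, and Mt1 at 60.2, 144 and 641 CPM and 1037, 1690.1 and 2567 CPM. For both genes all 7 MDA livers lay above all controls (4.18 ± 0.51, adjusted p 2.61e-06, and 3.31 ± 0.34, adjusted p 4.37e-07). The zinc exporter Slc30a1 rose without overlap (1.78 ± 0.23), and 5 of the 8 genes in this list rose and 0 fell. The call of the importer Slc39a14 rested on the library labelled MDA 1, with 0.70 ± 0.21 (adjusted p 0.0136) with it and 0.38 ± 0.16 (adjusted p 0.0722) without. The promoter of Mt2 is shown because it held the most matches to TGCNCNC, on either strand, among 7 listed genes with a promoter entry. This form is wider than the metal response element core, which takes A or G straight after TGC. The Mt2 promoter held 5 matches in 250 bases. Of the 27025 genes 47.2% held at least 1 match, and 106 genes (0.392%) held 5 or more. The Mt2 promoter lies at chr8:94172368-94172617 on the plus strand, with the matches in capitals. Among them TGCTCTC, and GGGAGCA read on the other strand, have T after TGC and are not cores in the narrower sense.
Mt2: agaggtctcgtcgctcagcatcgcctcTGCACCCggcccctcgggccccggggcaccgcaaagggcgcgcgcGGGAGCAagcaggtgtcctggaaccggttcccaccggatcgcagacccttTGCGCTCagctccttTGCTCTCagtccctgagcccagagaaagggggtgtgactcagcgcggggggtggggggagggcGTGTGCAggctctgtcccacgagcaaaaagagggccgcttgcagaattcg

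Single genes of other stress programmes were called. Cdkn1a, the p53 target that stops the cell cycle, stood at 3.68, 13.2 and 23.1 CPM in controls and 55.9, 85.1 and 162 CPM in MDA livers, without overlap (2.83 ± 0.31, adjusted p 8.8e-07). Mdm2, which restrains p53, rose by 0.75 ± 0.16, while the p53 targets Ccng1 and Phlda3 were not called (adjusted p 0.496 and 0.464); 5 of 23 p53 targets rose (21.7%, near the 17.4% of all genes) and 0 fell. Among chaperones of the endoplasmic reticulum 7 of 22 rose, Hsp90b1 by 0.84 ± 0.25, and the main one, Hspa5, was not called (0.29 ± 0.17, adjusted p 0.186). Cytosolic heat shock genes held 0 that rose and 1 that fell of 16, or 1 and 3 without the library labelled MDA 1.

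Subunits of the proteasome, which degrades tagged proteins, rose in 29 of 33 and fell in 0, by a median of 0.60. Psmd8 went from 89.3, 99.5 and 130.1 CPM to 143, 179 and 288 CPM and Psmc4 from 60.8, 70.3 and 94.4 CPM to 106, 124 and 178 CPM, both without overlap (0.90 ± 0.11 and 0.82 ± 0.10). Of 34 genes of ribosome assembly 15 rose and 0 fell; the nucleolar proteins Ncl and Npm1 rose by 1.16 ± 0.17 and 1.12 ± 0.20, and the growth factor-responsive gene Myc by 2.17 ± 0.32. In heme and iron handling 9 of 24 rose and 5 fell. Alas1, the first enzyme of heme synthesis, rose (1.18 ± 0.18), the iron hormone Hamp rose (0.74 ± 0.19) and its relative Hamp2 fell, from 83.8, 463 and 1372 CPM to 11.6, 25.5 and 36.4 CPM in the 6 livers and 294 CPM in the library labelled MDA 1 (-3.15 ± 0.70 with 7 and -4.49 ± 0.60 with 6).

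Acute phase proteins, which hepatocytes secrete under interleukin-6 and interleukin-1, rose in 23 of 29 and fell in 0 (median 1.20). Lcn2, an iron-siderophore binder, stood at 8.18, 46.9 and 669 CPM in the controls and 2017, 2408 and 4120.0 CPM in 6 MDA livers, with no overlap, and at 252 CPM in the library labelled MDA 1, within the controls (4.34 ± 0.72 with 7, adjusted p 8.9e-05). The serum amyloids Saa1 and Saa2, which are near-identical copies, went from control medians of 202 and 64.2 CPM to 1845 and 705, with overlap (2.81 ± 0.63 and 2.42 ± 0.85); without MDA 12 Saa2 was not called (adjusted p 0.262). Socs3, the feedback inhibitor of interleukin-6 signalling, was highest in the library labelled MDA 1, at 105 CPM against 11.8, 26.9 and 49.8 CPM in the others and 1.87, 3.78 and 27.3 CPM in the controls (2.66 ± 0.51 with 7, 2.15 ± 0.49 with 6). Transthyretin (Ttr), a carrier whose synthesis falls in inflammation, fell without overlap (-1.03 ± 0.12), and so did Serpina6, the corticosteroid carrier (-3.14 ± 0.35 with 7 and -3.70 ± 0.25 with 6). Of 23 complement genes 2 rose and 10 fell, Mbl2, a lectin that starts the cascade, by 1.25 ± 0.12 on the log2 scale.

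Cxcl1 and Cxcl2, chemokines that draw neutrophils, rose, and so did markers of neutrophils. Cxcl1 stood at 0.420, 7.16 and 31.1 CPM in the controls and 14.5, 80.5 and 107 CPM in the MDA livers, with overlap (2.78 ± 0.54, adjusted p 0.000479), and Cxcl2 rose by 3.99 ± 0.77. Ccl2, which draws monocytes, rose by 2.04 ± 0.64. Of 9 neutrophil markers tested 6 rose and 0 fell (median 1.97). The sum of all 18 listed ran from 548 to 1290.0 CPM in the MDA livers and from 343 to 872 CPM in the controls. Another 9 listed markers, Ly6g, Cxcr2 and Camp among them, were too low to test. S100a9, a granulocyte calcium binder, was at 0.498, 1.34 and 23.8 CPM in controls and 3.71, 15.5 and 65.1 CPM in MDA livers, so that the groups overlapped (2.53 ± 0.68). It made up little of the summed level, which rests on other members of the list. Of 20 chemokines 7 rose and 3 fell; Cxcl9 and Ccl5, which draw T cells, were among those that fell (-1.49 and -1.18).

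Genes of interferon response and antigen presentation fell. Of 42 interferon-stimulated genes 24 fell and 0 rose (median -1.05); without the library labelled MDA 1, 22 fell and 1 rose. Isg15, a ubiquitin-like modifier, stood at 9.06, 31.7 and 40.4 CPM in the controls and 4.75, 5.54 and 21.0 CPM in the MDA livers, which overlapped (-1.57 ± 0.34, adjusted p 0.00105). Ifit3, which binds foreign RNA, fell by 2.03 ± 0.40 on the log2 scale, and Irf7, the factor that drives type I interferon, was not called (adjusted p 0.0974; 0.0209, lower, without MDA 7).

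MHC class II genes fell in 9 of 10 and rose in 0 (median -1.30). Cd74, the invariant chain, was at 54.8, 124 and 145 CPM in the controls and 22.0, 45.8 and 68.7 CPM in the MDA livers, with overlap (-1.29 ± 0.23, adjusted p 0.000185). Markers of B and plasma cells fell in 8 of 10 and rose in 1 (Mzb1, adjusted p 0.0761 and 0.0727 without MDA 1 or 12), and those of T and NK cells fell in 6 of 13 and rose in 0. The summed T and NK cell markers ran between 4.79 and 15.3 CPM in the MDA livers and between 11.8 and 30.4 CPM in the controls, and those of B and plasma cells between 6.11 and 15.6 CPM in the MDA livers and between 15.5 and 37.2 CPM in the controls. Cd4 and Cd79a, of helper T and of B cells, fell to medians of 0.175 and 0.102 CPM from 0.787 and 0.446. No MDA liver reached the level of the low-count filter for either gene, so both were tested through the controls, where they were high. The list counts above include such members. What the lymphocyte markers contribute to the fall of the interferon and MHC lists was not tested.

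Of 17 markers of the resident macrophage, the Kupffer cell, 5 rose (29.4%), Hmox1 the most (1.90), and 4 fell (23.5%). Clec4f, its defining lectin, fell (-0.71 ± 0.20), Folr2, a folate receptor, fell (-1.30 ± 0.16), and Vsig4 and Timd4 were not called (adjusted p 0.854 and 0.0698; for Timd4 0.0479 and 0.0361, lower, without MDA 8 or 12). Among 16 markers of monocytes and recruited macrophages 4 rose and 1 fell; Ly6c2 and Ccr2, which define blood monocytes, were not called (adjusted p 0.866 and 0.626), and Cd9 and Trem2 rose (1.12 and 1.09; for Trem2 adjusted p 0.0521 and 0.0593 without MDA 3 or 7). Hemoglobin transcripts, a sign of blood left in the tissue, were not called, with Hba-a1 at 15.8, 49.4 and 101 CPM in MDA livers and 14.1, 47.6 and 130.4 CPM in controls.

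Stellate cells store retinoids and make matrix when activated. Their markers fell in 14 of 20 and rose in 2 (median -0.92), and matrix genes fell in 17 of 33 and rose in 3 (median -0.80). Col3a1, a fibrillar collagen, stood at 16.3, 28.1 and 60.7 CPM in the controls and 3.81, 5.69 and 7.74 CPM in the MDA livers, every MDA liver below every control (-2.40 ± 0.24, adjusted p 2.27e-07). Lrat, which esterifies retinol for storage, and Reln fell by 1.63 ± 0.25 and 1.49 ± 0.27 on the log2 scale, Acta2, the actin of activated cells, by 1.72 ± 0.47. Nid1, a basement membrane linker, rose in 6 livers to 29.1, 36.0 and 46.2 CPM from 4.83, 7.51 and 9.16 CPM in the controls, with 7.46 CPM in the library labelled MDA 1 (2.18 ± 0.21), and Mmp14, a membrane-bound matrix protease, rose without overlap (0.94 ± 0.10). Hgf, the growth factor that stellate cells supply to hepatocytes, rose (1.09 ± 0.26). Of 23 endothelial markers 10 fell and 3 rose: the scavenger receptor Stab2 and the nuclease Dnase1l3 fell (-0.66 and -1.49), and Lyve1, a hyaluronan receptor, rose without overlap (1.55).

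Hepatocytes divide their work along the lobule from the portal vein to the central vein. Pericentral genes fell in 14 of 22 and rose in 0 (median -1.07), with 17 lower without the library labelled MDA 1, and periportal genes fell in 7 of 22 and rose in 3. Glul stood at 305, 472 and 612 CPM in the controls and 28.4, 37.8 and 79.7 CPM in 6 MDA livers, without overlap, and at 418 CPM in the library labelled MDA 1 (-2.27 ± 0.46 with 7, -3.37 ± 0.23 with 6). Lgr5, a receptor of the Wnt pathway that marks the same cells, fell in all 7 livers without overlap, from 1.14, 2.39 and 3.66 CPM to 0.0895, 0.381 and 0.564 CPM (-2.73 ± 0.31, adjusted p 1.13e-06). Oat, ornithine aminotransferase, fell from a control median of 434 to 159.9 CPM (adjusted p 6.99e-06). On the periportal side the urea cycle enzyme Cps1 and the glutaminase Gls2 fell (-0.53 and -1.26; for Cps1 adjusted p 0.0538 without MDA 8), and Hal and Pck1 were not called (adjusted p 0.804 and 0.21).

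Genes under growth hormone and genes higher in male liver fell in 17 of 29 and rose in 1 (median -0.81). Hsd3b5, a male-biased steroid reductase, stood at 18.7, 87.7 and 138 CPM in the controls and 0.0302, 0.120 and 0.339 CPM in the MDA livers, without overlap (adjusted p 1.79e-10); the MDA livers held at most 9.36 estimated counts each, so no fold is given. Selenbp2 and Nudt7 fell without overlap from control medians of 338 and 423 CPM to 13.5 and 46.7 (-4.43 ± 0.31 and -3.30 ± 0.23). Igfals, which carries insulin-like growth factor in blood, fell from 59.4, 111 and 173 CPM to 5.12, 5.60 and 45.4 CPM (-3.00 ± 0.42 with 7). The highest of these MDA values, 45.4 CPM, was that of the library labelled MDA 1, and without it the log2 fold change was -3.73 ± 0.31. The receptor Ghr fell too (-1.30 ± 0.19). Female-biased genes split, with 9 of 22 higher and 7 lower. Major urinary proteins are near-identical copies and are given by count: 2 of 19 rose and 1 fell.

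Genes of amino acid catabolism and of oxidative phosphorylation were called lower more often than higher. Amino acid catabolism fell in 23 of 36 and rose in 3 (median -0.61). Pklr, the liver pyruvate kinase, stood at 92.1, 160.1 and 430.2 CPM in the controls, at 16.2, 24.6 and 27.8 CPM in 6 MDA livers, below every control, and at 108 CPM in the library labelled MDA 1, inside the control range (-2.44 ± 0.40 with 7 and -3.03 ± 0.33 with 6). G6pc, which releases glucose, fell without overlap (-2.24 ± 0.29). Glycolysis genes held 2 that rose and 6 that fell of 22, and gluconeogenesis genes 5 and 6 of 20 (median 0.07), so gluconeogenesis did not move one way as a list. Gamt, of creatine synthesis, fell without overlap (-2.47 ± 0.21). Fbp1, of gluconeogenesis, fell (-0.98 ± 0.26 with 7 and -1.48 ± 0.16 with 6), although the library labelled MDA 1 held 1179 CPM against 211, 299 and 406 CPM in the others and 695, 789 and 1239 CPM in controls. Nuclear genes of oxidative phosphorylation fell in 19 of 50 and rose in 0 by a median of -0.26, and 25 fell without the library labelled MDA 1. The 13 genes of the mitochondrial genome held 0 that rose and 0 that fell. Cebpa, a factor that maintains hepatocyte metabolism, fell (-1.08 ± 0.14), and Hnf4a, another, was called higher with all 7 livers (0.30 ± 0.09) and not without the library labelled MDA 1 (0.20 ± 0.08, adjusted p 0.0516).

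Cell division genes fell in 13 of 28 and rose in 1. Tk1, the thymidine kinase of S phase, stood at 29.6, 36.3 and 56.4 CPM in the controls and 1.92, 6.08 and 8.37 CPM in the MDA livers, without overlap (-2.78 ± 0.23, adjusted p 3.29e-08). Top2a, a topoisomerase of dividing cells, fell at a low level, to a median of 0.0965 CPM from 0.396. No MDA liver reached the level of the low-count filter for Top2a, so it was tested through the controls, where it was high. Ccne1, the cyclin of S phase entry, was the member that rose (2.15 ± 0.31). Of 26 immediate early and growth factor genes 14 rose and 1 fell; Ier3 and Hbegf rose (3.00 and 2.22), while Fos, Jun and Egr1 were not called (adjusted p 0.973, 0.82 and 0.546). Among 28 cytoskeleton genes 16 rose and 3 fell, with Tuba8 without overlap (1.81 ± 0.23).

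Other secreted and metabolic genes were called in both directions. Of 25 coagulation genes 4 rose and 7 fell: Plaur, the urokinase receptor, rose (2.35 ± 0.48), and the clotting factor F7 fell (-0.72 ± 0.13). Of 25 hormones and binding proteins of liver 7 rose and 6 fell. Inhbb, an activin subunit, stood at 0.137, 0.410 and 1.96 CPM in the controls and 2.96, 5.45 and 9.62 CPM in the MDA livers (3.29 ± 0.36). Its control median lay near the level of the low-count filter, which every MDA liver exceeded. The leptin receptor Lepr rose by 2.27 ± 0.50. Lepr stood at 25.9 CPM in the library labelled MDA 1, at 0.566, 2.28 and 14.1 CPM in the other 6 and at 0.856, 1.75 and 2.85 CPM in controls, so the groups overlapped, and its log2 fold change without that library was 1.58 ± 0.45. Of 21 genes of methionine and one-carbon metabolism 3 rose and 8 fell; Shmt1, the cytosolic serine hydroxymethyltransferase, fell (-1.63 ± 0.25).

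The 19 clock genes held 4 that rose (21.1%, near the 17.4% of all genes) and 1 that fell (5.26%). Among those that rose were Usp2, a deubiquitinase, and Ciart, a repressor, by 2.54 ± 0.35 and 2.07 ± 0.49, while the core activator Arntl was not called (adjusted p 0.698). Retinoid genes held 5 that rose and 5 that fell of 15 (33.3% each), and lipoprotein genes 5 and 5 of 22 (22.7% each, near the shares of all genes). Of 21 genes of cell death and the inflammasome 3 rose and 2 fell, shares below those of all genes (17.4% and 16.4%).

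**Figure D4:**
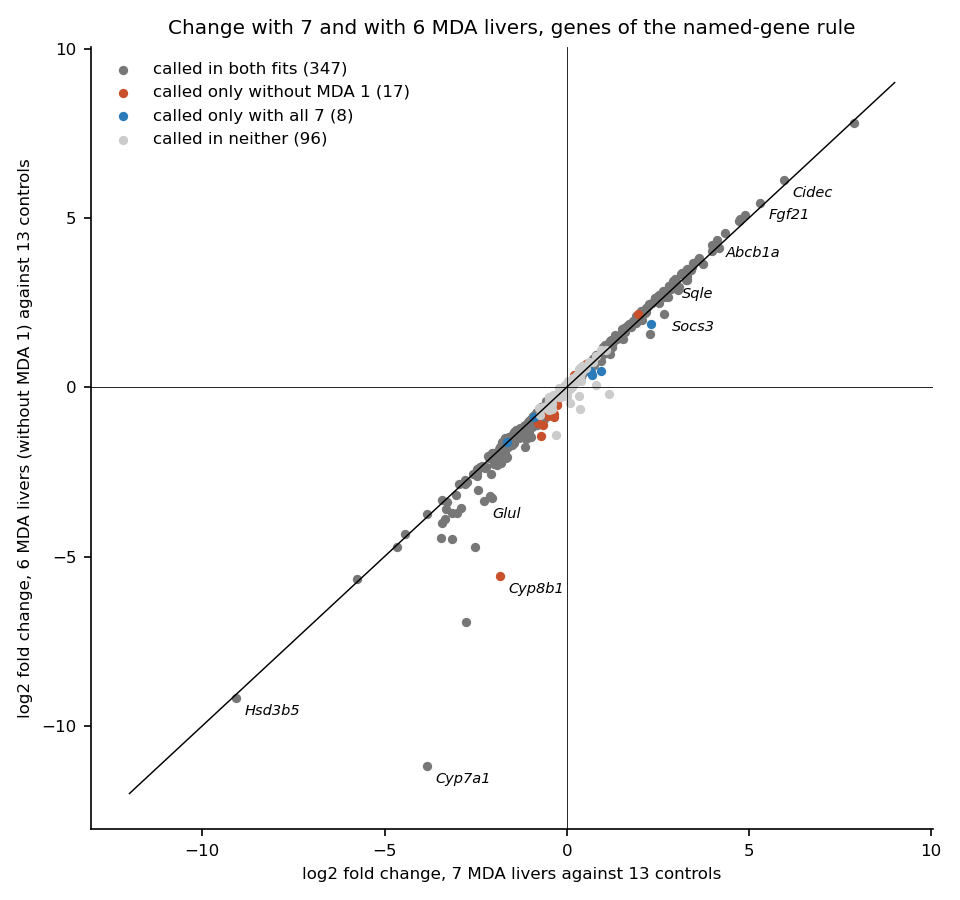
Log2 fold change of each gene of the named-gene rule against the controls with 7 MDA livers (x axis) and with the library labelled MDA 1 left out (y axis); the line marks equal values. Of these genes 347 were called in both fits, 17 only without that library, 8 only with it and 96 in neither, and Cyp7a1 lies farthest below the line, at a value that depends on the prior count.

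How MDA livers differ from those of the other compounds was tested directly, without the control mice. With all livers, edgeR called 0 of 13360 genes between MDA and ANIT (0%), with 1253 at an unadjusted p under 0.05, and DESeq2 called 78. Without the libraries labelled MDA 1 and ANIT 1 edgeR called 627 of 13657 (4.59%), 289 higher and 338 lower in MDA, with a median over all genes of 0.04. Leaving out libraries that were chosen by their distance from their group draws the groups apart, so these 627 are a description. Against APAP 1272 of 13492 genes passed (9.43%), 546 higher and 726 lower, and 1158 (8.65%) without the library labelled MDA 1; scaled to library totals, 24.3% of the calls against APAP were higher in MDA where 42.9% were with TMM, and the median of all genes moved from -0.03 to -0.22. Against TAA 4118 of 13705 passed (30%), and 4020 (29.5%) without that library. The values that follow are without it, and for ANIT without the library labelled ANIT 1.

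Against ANIT, Cyp7a1 and Cyp8b1 were among the genes called, while of 15 bile acid synthesis genes 5 were lower and 0 higher in MDA (median -0.25). Cyp7a1 was at 0 to 0.0882 CPM in 6 MDA livers and 8.96 to 41.6 CPM in 3 ANIT livers, and Cyp8b1 at 2.54 to 8.32 CPM and 62.5 to 434 CPM (-5.67 ± 0.53 as a log2 difference of MDA minus ANIT). Gsta1 was at 148 to 416 CPM in MDA and 3.53 to 15.8 CPM in ANIT (5.18 ± 0.57), Gstm3 at 702 to 3115 CPM and 11.9 to 72.3 CPM (5.51 ± 0.79), and the P450 enzyme Cyp2c55 at 2.80 to 12.5 CPM and 0.0930 to 0.199 CPM. The library labelled ANIT 1 held 358, 2609 and 11.9 CPM of these 3, inside the MDA range, and the library labelled MDA 1 held 5.99, 31.9 and 0.414 CPM. With all 7 MDA and 4 ANIT livers none of these was called: the log2 difference was -0.87 ± 1.89 (adjusted p 0.903) for Cyp7a1, -1.52 ± 1.52 (adjusted p 0.758) for Cyp8b1, 1.43 ± 1.21 (adjusted p 0.715) for Gsta1 and 1.03 ± 1.33 (adjusted p 0.814) for Gstm3.

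By list, 8 of 22 glutathione S-transferases were higher in MDA than in ANIT and 0 lower, where 289 of all 13657 genes tested were higher and 338 lower. Lower in MDA were 17 of 32 genes of fat oxidation (median -0.92), 12 of 22 endoplasmic reticulum chaperones (median -1.05) and 10 of 29 acute phase proteins (median -0.82), with 1, 0 and 1 higher.

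Against APAP, xenobiotic enzymes were higher and matrix genes lower in MDA. Cyp2b10 was at 224 to 544 CPM in MDA and 2.24 to 8.77 CPM in APAP livers (5.91 ± 0.37, adjusted p 5.7e-06), and Slc51b at 49.2 to 123 CPM and 0.831 to 5.70 CPM (4.83 ± 0.53). Timp1, the inhibitor of matrix proteases, was at 0.565 to 3.33 CPM and 9.09 to 40.9 CPM (-3.31 ± 0.47), and Fabp5, a fatty acid binder of macrophages and endothelium, at 4.72 to 7.62 CPM and 20.3 to 104 CPM. Of 34 matrix genes 23 were lower and 0 higher (median -1.80), and of 24 cell cycle genes 10 were lower. Monocyte and recruited macrophage markers were lower in 6 of 16, stellate cell markers in 7 of 20 with 1 higher, and chemokines in 6 of 20. Red cell markers were lower in 3 of 6 (median -2.44), and the part of these cells in the differences from APAP was not tested. Higher in MDA were 11 of 22 glutathione S-transferases, 11 of 21 glucuronosyl- and sulfotransferases and 12 of 30 P450 enzymes, with 0, 0 and 2 lower. Over all 13385 genes tested here, 512 were higher and 646 lower in MDA.

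Against TAA, cholesterol genes were higher in MDA in 23 of 26 (median 2.38), canalicular exporters in 10 of 10, bile acid sensors in 9 of 9 and acute phase proteins in 18 of 29, with 2 acute phase proteins lower and 0 of the other 3 lists. Over all 13612 genes tested here, 1898 were higher and 2122 lower in MDA. Nr0b2 was at 137 to 183 CPM in MDA and 3.65 to 9.91 CPM in TAA livers (4.83 ± 0.27, adjusted p 1.13e-06), and Cyp26a1, which degrades retinoic acid, at 42.1 to 99.6 CPM and 0.510 to 3.02 CPM (5.14 ± 0.44). Lower in MDA were 32 of 34 genes of ribosome assembly, 26 of 29 immediate early genes, 25 of 35 matrix genes and 11 of 15 neutrophil markers, with 1 immediate early and 1 matrix gene higher. Red cell markers were lower in 6 of 7 (median -4.63), and their part in these differences was not tested.

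**Figure D5:**
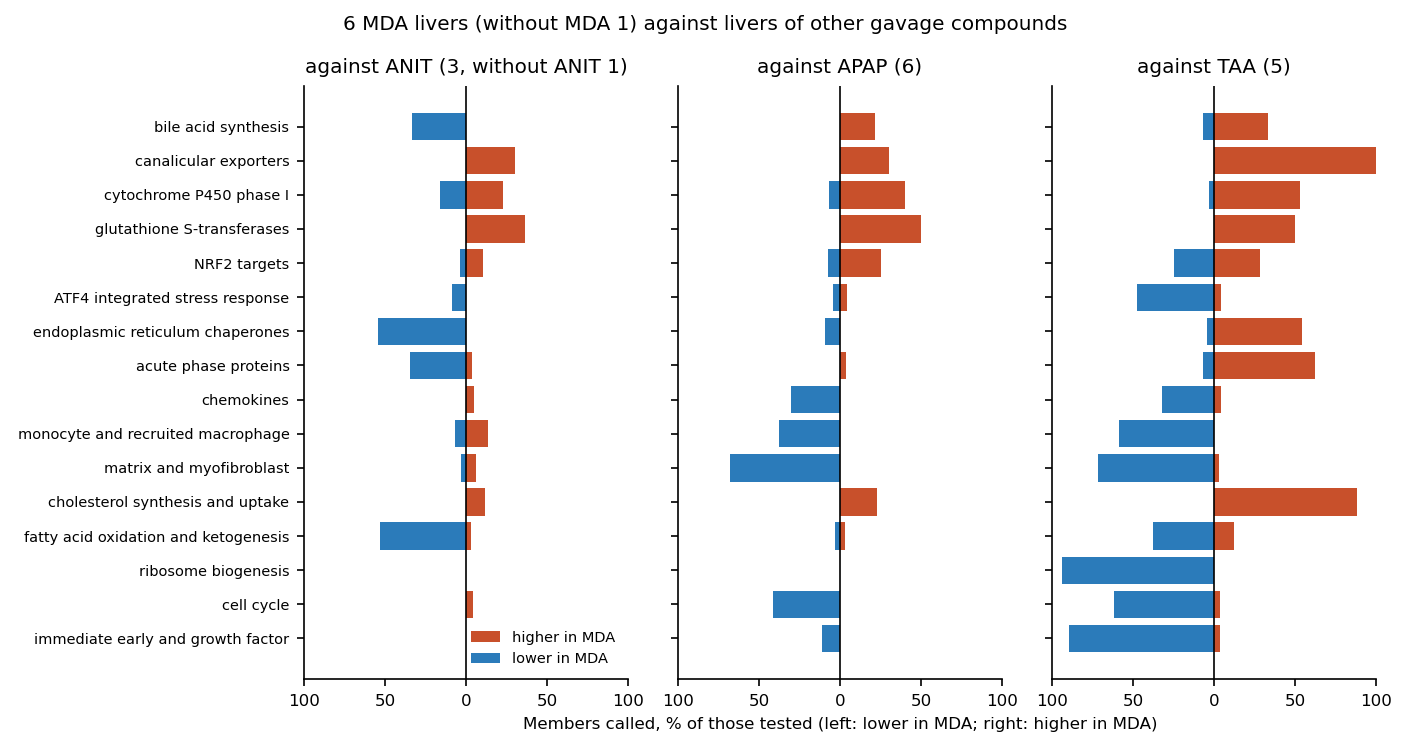
Share of the tested members of 16 gene lists called lower (left) or higher (right) in 6 MDA livers than in 3 ANIT, 6 APAP or 5 TAA livers, without the libraries labelled MDA 1 and ANIT 1. All 10 canalicular exporters are higher in MDA than in TAA, and 23 of 34 matrix genes are lower than in APAP. Over all genes tested, 4.59%, 8.65% and 29.5% were called either way against ANIT, APAP and TAA.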

How the data were processed

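RNA of 57 mouse livers was sequenced, and the series was deposited as a table of estimated counts for 54307 genes. Per the submitters' processing notes these came from Salmon 1.6.0 and R 4.1.3 with GRCm39. The deposited estimated counts are not whole numbers. The lowest value of a gene fell with its length over 4208 genes of 1 transcript (Spearman rho -0.944), so the authors' counts appear to be length-corrected, which no label states. Estimated counts were rounded before testing. Symbols came from GENCODE M21, a GRCm38 annotation, for 51482 identifiers, and 2825 had none.

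Samples were grouped by their labels. Genes with too few counts were left out by edgeR's filterByExpr, libraries were scaled by TMM, and groups were compared with edgeR 4.0.16 in R 4.3.3 (quasi-likelihood test, Benjamini-Hochberg adjusted p under 0.05); SE is the log2 fold change divided by the square root of F. Direct comparisons were fitted on their own groups. Mitochondrial shares were compared by an exact permutation test over 77520 divisions. Alternatives were DESeq2 1.42.0, limma 3.58.1, other scalings and filters, number ranges, the replicate number as a block, and leaving out each MDA liver (list counts move under these too) or, in direct comparisons, each mouse of either group; single controls were not left out. On data simulated for MDA against Ctrl (13232 genes, 195 changed) the test recovered 81% of the changed genes, and 7.06% of its calls were false. The p-values measure the spread between mice. Libraries held 15188909 to 28093184 estimated counts in these 2 groups; low levels rest on few counts.

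The groups and the 64 gene lists (1332 genes) were chosen with earlier results of these data known. Named genes were the first 4 members of each list with its 3 largest rises and falls, the 15 largest non-overlapping rises and falls among genes reaching a group mean of 5 CPM, and the 6 largest in each direction of each direct comparison. Not every gene so named is described, and some are not reported here.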

Additional observations from a re-analysis of the deposited data

Results flagged for a closer look

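Single MDA livers that stood far from the other 6 were looked for in 183 named genes (Dixon's gap test on log2 of CPM + 1, critical value 0.568). It marked 35, 29 of them in the library labelled MDA 1; chance marks about 1 in 20, and the genes are not independent. In that library the bile acid and transport genes Cyp7a1 (64.4 CPM), Cyp8b1 (461), Abcb4 (67.7), Abcb1a (0.451), Slc51b (1.66), Nr1h4 (81.6), Nr0b2 (41.9) and Hnf4a (278) stood apart. The sterol and lipid genes were Hmgcs1 (14.2 CPM), Sqle (1.49), Idi1 (2.51), Tm7sf2 (20.1), Fasn (101), G0s2 (66.9) and Fabp5 (1.53). The xenobiotic and retinoid genes were Cyp1a1 (7.60 CPM), Gsta1 (6.41), Gstm3 (34.1), Cbr3 (2.68) and Cyp26a1 (3.81). The others were Hamp2 (294 CPM), Lcn2 (252), F7 (73.7), Cd9 (11.9), Nid1 (7.46), Cebpa (90.3), Glul (418), Fbp1 (1179) and Pklr (108).

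In other livers, MDA 7 stood apart for Cldn4 (2.51 CPM) and Sult2a8 (7.19), MDA 2 for Mdm2 (6.31), Cxcl9 (0.406) and Ebp (225), and MDA 3 for Lrat (1.46).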

How the results depend on the processing

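Against the controls the 4570 genes called became 3507 with library totals (3404 of them among the 4570; 1560 higher and 1947 lower), 4549 with RLE scaling, 4832 with DESeq2, 4592 with limma, 4754 with no filter on low counts and 3137 with a mean of at least 5 CPM. They became 4675 with the number range as a covariate, 1292 within numbers 1 to 4 and 3020 above 4, and ran from 3943 to 4779 when each MDA liver was left out. No named gene that was called changed direction under these alternatives. Between MDA and ANIT, where edgeR called 0 genes, DESeq2 called 78. Leaving out each mouse gave 0 to 54, of which 54 came without ANIT 1, 2 without ANIT 3 and 1 without MDA 12. Without both libraries numbered 1, an alternative added after seeing the data, 627 were called, or 1412 with DESeq2. Scaling to library totals moved the median of all genes between MDA and ANIT from 0.03 to 0.20. Against APAP the 1272 calls became 2040 with DESeq2, 792 with a mean of at least 5 CPM and 69 within numbers 1 to 4, and ran from 872 to 1887 when each mouse was left out. Against TAA the 4118 calls became 2930 with library totals (1234 higher and 1696 lower), 2725 with a mean of at least 5 CPM and 767 within numbers 1 to 4, and ran from 3389 to 4472. With the replicate number as a block (replicate block), 2554 genes were called against the controls, 0 against APAP and 1433 against TAA; same-numbered MDA and control livers deviated together with r from -0.139 to 0.11, and 0 of 7 correlated best with their own number, so the numbers are not treated as pairs. With APAP r ran from -0.0353 to 0.0563 (0 of 4 best with their own number) and with TAA from -0.108 to 0.124 (1 of 4). The mitochondrial share, 2.46 percentage points higher in MDA, was -0.574 above number 4 and ran from 1.34 to 3.90 without single MDA livers. Of 128 counts of list members called higher or lower against the controls, 14 moved by over 1.5 times with library totals, 3 with DESeq2, 17 without the controls numbered above 12, 80 within numbers 1 to 4, 35 above 4, 39 with the replicate block and 3 to 8 without single MDA livers; with a mean of at least 5 CPM it was 32 of 126. The cause of these shifts was not tested; ranges and filters also leave fewer livers or genes to test.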
